A study of Mus musculus with 12 samples.

Results

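*Bcl6*, *Prdm1*, *Maf*, *Irf4* and *Ascl2* encode transcription factors that act on the choice between T follicular helper (Tfh) cells and other CD4+ effector cells. Their rows were read by symbol from the count table of every library, and all 5 were found among the 26608 genes listed and among the 16035 genes tested. The libraries came from CD4+ YFP(FOXP3)- T cells, that is CD4+ T cells without the YFP reporter of FOXP3, sorted from spleen pooled with cervical and inguinal lymph nodes, with 1 library from each of 4 mice per group. All mice were 14 weeks old and carried the Foxp3-Cre YFP/iCre allele, which places YFP and Cre under the *Foxp3* locus. The WT group (Foxp3Cre WT) had no floxed Tet genes. The DKO-moderate and DKO-severe groups were both Foxp3-Cre *Tet2*/3 fl/fl mice, in which *Tet2* and *Tet3*, enzymes that oxidise 5-methylcytosine, are deleted where Foxp3-Cre is or was active. The class moderate or severe was set by the number of leukocytes in the same organs, so it is a degree of disease and not a second genotype. By the study's account the sorted DKO cells mix former Treg cells that lost FOXP3 with conventional CD4+ T cells, and Foxp3-Cre can also act at a low level outside Treg cells. The study also describes the sorted WT cells as mainly naive, and the conventional DKO cells as mostly activated or memory cells. The groups therefore differ in the states of their cells as well as in genotype. The part of that difference in the levels below was not tested.

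Tfh cells are the CD4+ T cells that enter B cell follicles and help B cells in germinal centres. BCL6 is the repressor that defines them, and it silences genes of the other helper fates. BLIMP-1, the product of *Prdm1*, is the opposing repressor: BCL6 and BLIMP-1 repress each other's gene in T cells, and BLIMP-1 is also the regulator that turns B cells into plasma cells. c-MAF, the product of *Maf*, drives *Il21* and *Il4* in Tfh cells and *Il10* in several helper fates. IRF4 binds DNA with BATF and JUN proteins downstream of the T cell receptor, and its dose favours effector cells at large, plasma cells included. ASCL2 is a basic helix-loop-helix factor that raises *Cxcr5* and lowers *Ccr7* early in Tfh commitment.

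*Bcl6* and *Irf4*, which moved together, are shown here beside *Prdm1* with the window around their starts, 250 bases before to 50 bases after, since BCL6, BLIMP-1 and IRF4 are themselves known to bind members of this group. RefSeq (GRCm38.p6) gave such a window for 4 of the 5 genes, all but *Maf*, with 2 starts for *Bcl6*. The windows shown lie on the minus strand at chr16:23988803-23989102 (first *Bcl6* start), chr16:23981234-23981533 (second *Bcl6* start, inside the gene) and chr10:44458699-44458998 (*Prdm1*, inside the gene model given below), and on the plus strand at chr13:30748983-30749282 (*Irf4*). Capitals mark matches, on either strand, to TTCNNNGAA (a core shared by STAT proteins and BCL6) and to GAAAG (a core of BLIMP-1 sites, also met in IRF sites), and every TTCCNNGAA is also a TTCNNNGAA.

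Bcl6 first start: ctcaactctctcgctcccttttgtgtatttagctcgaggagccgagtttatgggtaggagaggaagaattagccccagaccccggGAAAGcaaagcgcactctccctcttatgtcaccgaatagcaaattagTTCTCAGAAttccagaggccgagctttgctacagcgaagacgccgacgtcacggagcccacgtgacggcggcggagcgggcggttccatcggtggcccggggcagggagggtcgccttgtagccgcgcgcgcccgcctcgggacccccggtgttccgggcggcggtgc
Bcl6 second start: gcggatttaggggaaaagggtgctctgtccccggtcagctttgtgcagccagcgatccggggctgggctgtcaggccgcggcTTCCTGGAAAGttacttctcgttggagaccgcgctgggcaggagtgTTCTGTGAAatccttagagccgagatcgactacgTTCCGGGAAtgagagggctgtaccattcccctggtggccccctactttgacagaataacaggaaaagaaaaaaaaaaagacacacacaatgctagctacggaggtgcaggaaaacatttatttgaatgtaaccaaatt
Irf4: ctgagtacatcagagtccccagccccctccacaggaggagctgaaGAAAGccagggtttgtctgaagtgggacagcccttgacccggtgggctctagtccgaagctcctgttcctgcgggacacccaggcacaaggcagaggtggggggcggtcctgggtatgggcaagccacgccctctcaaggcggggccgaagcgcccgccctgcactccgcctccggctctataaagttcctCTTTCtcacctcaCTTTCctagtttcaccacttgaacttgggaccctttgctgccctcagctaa
Prdm1: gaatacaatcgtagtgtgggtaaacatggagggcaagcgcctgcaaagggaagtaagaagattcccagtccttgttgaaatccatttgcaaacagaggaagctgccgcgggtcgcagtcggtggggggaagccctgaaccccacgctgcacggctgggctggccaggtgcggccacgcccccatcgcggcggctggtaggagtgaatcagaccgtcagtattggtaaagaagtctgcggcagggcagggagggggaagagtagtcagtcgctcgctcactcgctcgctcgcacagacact

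The second *Bcl6* window held 3 matches to TTCNNNGAA, of which 2 were TTCCNNGAA. Among 32544 RefSeq promoter windows of the same length, 8.33% held at least 1 TTCNNNGAA and 0.0338% held 3 or more, while 0.194% held 2 or more TTCCNNGAA. The first *Bcl6* window held 1 TTCNNNGAA and 31 CG dinucleotides, a number reached by 10.7% of all windows. The *Irf4* window held 3 GAAAG, which 7.63% of windows reached. Neither motif was matched in the *Prdm1* window, which held 20 CG dinucleotides, a number reached by 26.7% of windows. The *Ascl2* window, not printed above, likewise held neither motif, and it had 23 CG dinucleotides (reached by 21.7%). So the presence of these motifs did not separate the genes that rose from *Prdm1*. A match of letters is a description of the sequence and does not show a bound site.

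In GENCODE M21 (GRCm38), *Bcl6* is the protein-coding gene at chr16:23965052-23988852 on the minus strand, *Prdm1* lies at chr10:44437177-44528501 on the minus strand, and *Maf* lies at chr8:115682942-115707794 on the minus strand. *Irf4* lies at chr13:30749226-30766976 on the plus strand and *Ascl2* at chr7:142966829-142969264 on the minus strand. Their exons cover 6700, 5579, 8241, 4903 and 1623 bases in the order *Bcl6*, *Prdm1*, *Maf*, *Irf4*, *Ascl2*. Antisense gene models overlap *Bcl6* (*Gm37419*) and *Maf* (*Gm15655*), neither has a row of its own in the count tables, and the counting used strand.

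Reads on genes numbered 29254260 to 42133536 per library, and each member but *Ascl2* had at least 260 reads in every library. Levels are given as CPM, the reads of a gene relative to all reads of its library, after scaling by TMM, a method that aligns the bulk of genes between libraries. General T cell genes summed to 5021 to 6573 CPM in every library, so each held T cell RNA. This sum does not measure how pure the sorted cells were. *Tet2* spanned 43.3 to 62.2 CPM in WT and 56.7 to 65.8 CPM in DKO-severe, and *Tet3* spanned 167.4 to 210.4 CPM in WT and 87.8 to 102.5 CPM in DKO-severe. *Tet3* was lower in DKO-severe than in WT (-1.03 on the log2 scale, edgeR adjusted p = 0.000859), and *Tet2* did not pass (0.22, edgeR adjusted p = 0.234). Counts over whole genes can include exons outside the deleted part, and the sorted DKO cells are mixed, so these levels do not check the labels. The causes of these levels were not tested. Neutrophil genes stood apart in DKO-severe 1 and DKO-severe 2 (2052 and 756.4 CPM in sum), and B cell genes in WT 3 and DKO-severe 2 (249.4 and 416.7 CPM). In sorted bulk cells, a change in the number of cells that express a gene and a change in RNA per cell cannot be told apart.

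*Bcl6*, *Maf* and *Irf4* were higher in both DKO groups than in WT, and *Ascl2* was higher in DKO-severe, while the level of *Prdm1* did not pass the test in any comparison. Against WT, DKO-severe cells had 4.83 times as much *Bcl6*, 10.3 times as much *Maf*, 8.32 times as much *Irf4* and 6.21 times as much *Ascl2*. The same fold for *Prdm1* was 1.02. Over all genes tested by edgeR's quasi-likelihood test with Benjamini-Hochberg adjustment, 26.6% were called higher in DKO-severe than in WT, against 4 of these 5 genes. Every DKO-severe library lay above every WT library for the same 4 genes, as for 24.6% of genes tested.

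**Figure D1:**
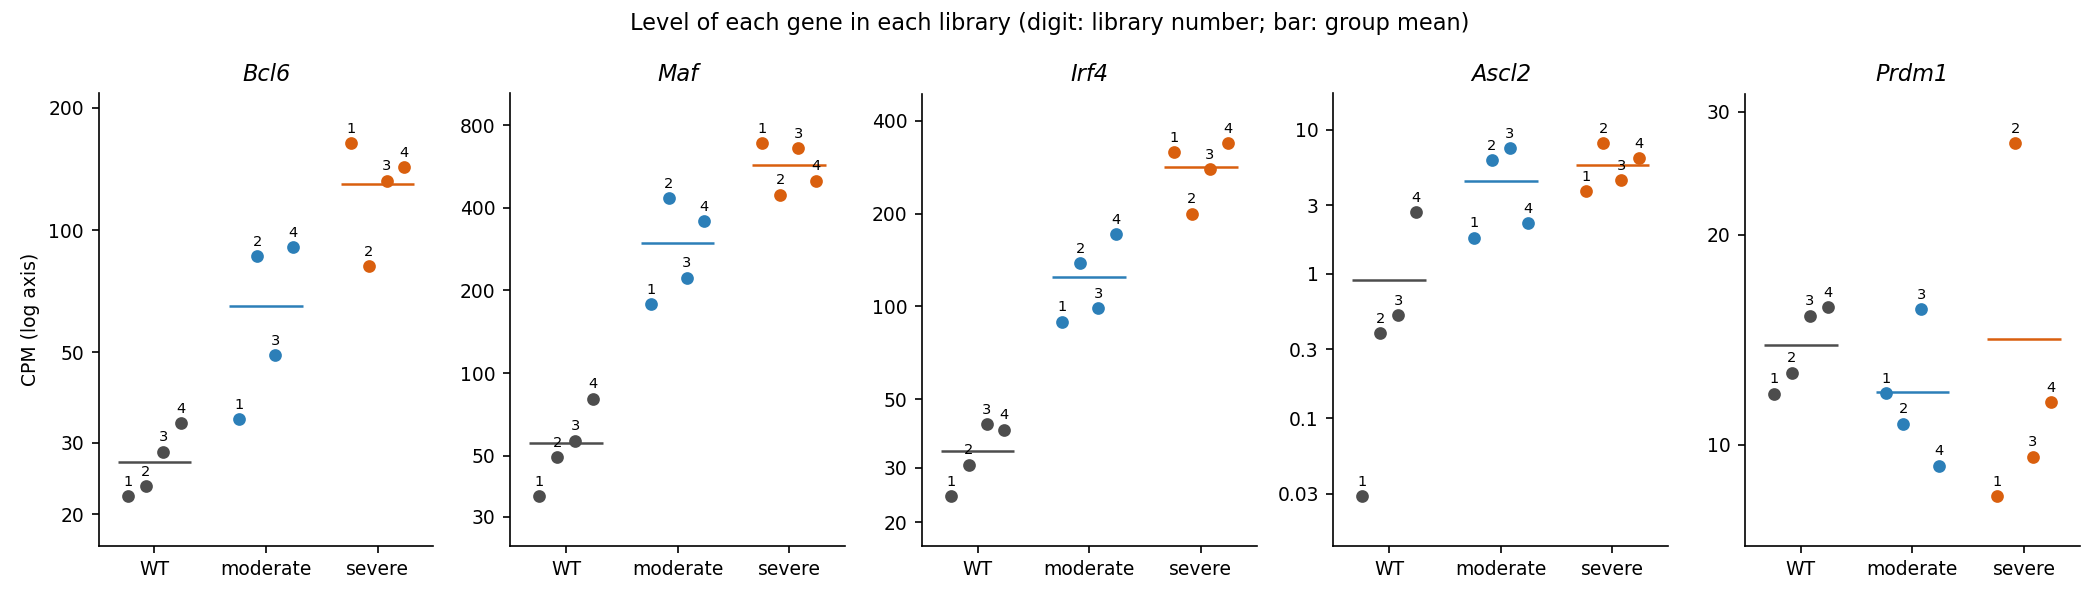
CPM of each gene in each library on a log axis (vertical), with libraries grouped as WT, DKO-moderate and DKO-severe (horizontal), 1 point per library with its number above it and a bar at the group mean. Bcl6, Maf and Irf4 step up from WT to DKO-moderate to DKO-severe, whereas Prdm1 stays between 8.44 and 15.7 CPM in 11 libraries and reaches 27.1 CPM in DKO-severe 2.

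*Bcl6* stood at 22.2, 23.4, 28.5 and 33.5 CPM in WT 1 to 4. In DKO-moderate 1 to 4 it stood at 34.2, 86.1, 49.2 and 90.6 CPM, and in DKO-severe 1 to 4 at 163.7, 81.4, 132.2 and 142.7 CPM. All DKO libraries were above all WT libraries, DKO-moderate 1 only narrowly, and DKO-severe 2 lay among the DKO-moderate libraries. The means were 26.9 ± 5.19, 65.0 ± 27.7 and 130.0 ± 35.0 CPM (SD, n = 4 each). Relative to WT, *Bcl6* rose by 2.27 on the log2 scale in DKO-severe (SE 0.31, edgeR adjusted p = 9.7e-05) and by 1.27 in DKO-moderate (SE 0.30, edgeR adjusted p = 0.0132). DKO-severe exceeded DKO-moderate by 1.0 on the log2 scale (SE 0.30, edgeR adjusted p = 0.0336). This last call was lost when DKO-moderate 1, DKO-moderate 3, DKO-severe 1, DKO-severe 3 or DKO-severe 4 was left out (log2 differences of 0.79 to 1.03, edgeR adjusted p of 0.0619 to 0.0951), and when only these 2 groups were fitted (1.01, edgeR adjusted p = 0.0727). Fits with covariates lost it too: the step was 0.38 with plasma cell genes as a term (edgeR adjusted p = 0.737), 0.75 with B cell and neutrophil genes as terms (edgeR adjusted p = 0.393) and 1.05 under the replicate block (edgeR adjusted p = 0.051).

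*Maf*, whose product drives *Il21* and *Il10*, had the largest fold over WT of the 5 genes in both DKO groups. Without WT 4, the fold of *Ascl2* was larger than that of *Maf* in DKO-severe (4.17 against 3.61 on the log2 scale) and in DKO-moderate (3.81 against 2.66). It stood at 35.6, 49.3, 56.6 and 80.7 CPM in WT 1 to 4, at 178.5, 432.7, 222.1 and 357.1 CPM in DKO-moderate 1 to 4, and at 689.0, 446.7, 660.4 and 502.4 CPM in DKO-severe 1 to 4. The 3 groups did not overlap, although DKO-moderate 2 and DKO-severe 2 were close. The means were 55.5 ± 18.9, 297.6 ± 117.9 and 574.6 ± 118.4 CPM (SD, n = 4 each). Relative to WT, the rise on the log2 scale was 3.37 for DKO-severe (SE 0.32, edgeR adjusted p = 1.17e-05) and 2.42 for DKO-moderate (SE 0.31, edgeR adjusted p = 0.0005). The step from DKO-moderate to DKO-severe was 0.95 (SE 0.29, edgeR adjusted p = 0.0404). It no longer passed without WT 2, DKO-moderate 1, DKO-moderate 3, DKO-severe 1, DKO-severe 3 or DKO-severe 4 (0.77 to 1.04, edgeR adjusted p of 0.0538 to 0.11), nor with only the 2 groups fitted (0.96, edgeR adjusted p = 0.0556). With the plasma cell term it was 0.40, with the neutrophil and B cell terms 0.63 and with the replicate block 1.03, none past the threshold.

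*Irf4*, the factor that pairs with BATF, stood at 24.3, 30.7, 41.5 and 39.9 CPM in WT 1 to 4. It stood at 89.3, 138.1, 98.9 and 171.7 CPM in DKO-moderate 1 to 4 and at 316.8, 199.7, 278.6 and 339.1 CPM in DKO-severe 1 to 4. The groups were ordered without overlap, and DKO-severe 2 was again the lowest of its group. The means were 34.1 ± 8.09, 124.5 ± 37.9 and 283.6 ± 61.2 CPM (SD, n = 4 each). DKO-severe exceeded WT by 3.06 on the log2 scale (SE 0.25, edgeR adjusted p = 6.47e-06), and DKO-moderate exceeded it by 1.87 (SE 0.24, edgeR adjusted p = 0.00054). The step between the DKO groups was 1.19 (SE 0.24, edgeR adjusted p = 0.00722), and this call held without any single library (1.06 to 1.41). It was lost in fits with terms for other cell types, described further on: 0.62 with plasma cell genes (edgeR adjusted p = 0.422) and 1.12 with B cell and neutrophil genes (edgeR adjusted p = 0.149).

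*Ascl2*, an early Tfh factor, was the scarcest of the 5 in WT cells. It had 1, 12, 18 and 98 reads in WT 1 to 4, which is 0.0287, 0.387, 0.517 and 2.68 CPM. In DKO-moderate 1 to 4 it had 67, 195, 301 and 85 reads (1.78, 6.15, 7.48 and 2.25 CPM), and in DKO-severe 1 to 4 it had 115, 266, 188 and 264 reads (3.73, 8.10, 4.48 and 6.32 CPM). WT 4 lay within the DKO-moderate range, and all DKO-severe libraries lay above WT. The single read in WT 1 has an exact 95% Poisson interval of 0.0253 to 5.57 reads, for counting error only. As a log2 fold change over WT, this was 2.63 in DKO-severe (SE 0.86, 95% interval 0.76 to 4.51, edgeR adjusted p = 0.0225) and 2.28 in DKO-moderate (SE 0.85, 95% interval 0.42 to 4.14, edgeR adjusted p = 0.0871). The first call was lost without WT 2 (2.39, edgeR adjusted p = 0.0619), without WT 3 (2.44, edgeR adjusted p = 0.0512) or without DKO-severe 1 and DKO-severe 2 together (2.61, edgeR adjusted p = 0.0588). The second passed without WT 4 (3.81, edgeR adjusted p = 0.00939) and in DESeq2 (2.30, adjusted p = 0.0218). Between the DKO groups *Ascl2* differed by 0.36 (SE 0.80, 95% interval -1.39 to 2.10), too wide to place the groups in an order.

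*Prdm1* stood at 11.8, 12.7, 15.3 and 15.7 CPM in WT 1 to 4, at 11.9, 10.7, 15.6 and 9.33 CPM in DKO-moderate 1 to 4, and at 8.44, 27.1, 9.62 and 11.5 CPM in DKO-severe 1 to 4. DKO-severe 2 was the highest of all 12 libraries, and the other 3 DKO-severe libraries lay below every WT library. The means were 13.9 ± 1.92, 11.9 ± 2.71 and 14.2 ± 8.70 CPM (SD, n = 4 each), and the median of DKO-severe was 10.6 CPM. DKO-severe differed from WT by 0.03 on the log2 scale (SE 0.32, 95% interval -0.68 to 0.73, edgeR adjusted p = 0.949). For DKO-moderate and WT the difference was -0.22 (SE 0.32, 95% interval -0.93 to 0.48, edgeR adjusted p = 0.667). Between both DKO groups it was 0.25 (SE 0.32, 95% interval -0.45 to 0.95, edgeR adjusted p = 0.602). Without DKO-severe 2 the direction against WT turned, to -0.47 (SE 0.20, edgeR adjusted p = 0.0669), and that against DKO-moderate turned to -0.23 (SE 0.20, edgeR adjusted p = 0.419). These intervals include both falls and rises of *Prdm1* and do not show equal levels.

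**Figure D2:**
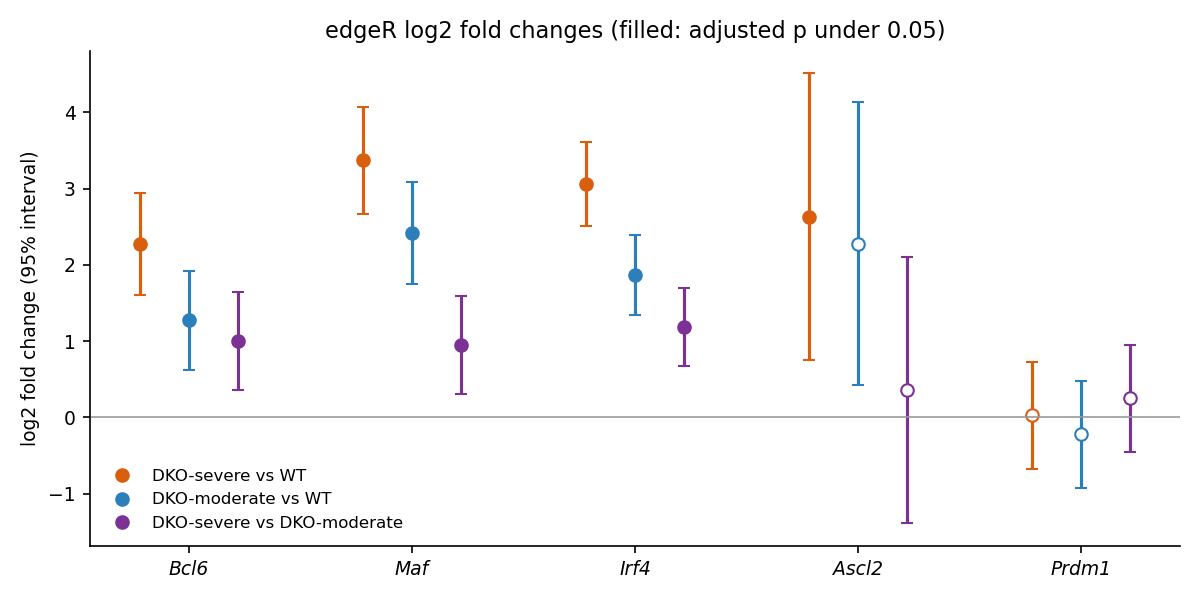
Log2 fold change of each gene (vertical, with 95% intervals) in DKO-severe vs WT, DKO-moderate vs WT and DKO-severe vs DKO-moderate (colours), with filled points where edgeR's adjusted p was under 0.05. The 3 Prdm1 intervals cover 0, and the Ascl2 intervals are the widest.

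Between DKO-moderate and WT, 3 of the 5 genes were called higher, where 12.3% of all genes tested were, and the same 3 (*Bcl6*, *Maf* and *Irf4*) had every DKO-moderate library above every WT library, as did 14.6% of all genes. In DKO-severe against DKO-moderate, the calls were again *Bcl6*, *Maf* and *Irf4*, where 9.41% of all genes were called higher, and of these *Maf* and *Irf4* did not overlap between the groups, as was so for 9.77% of genes. DKO-severe and DKO-moderate share the WT libraries in their comparisons with WT, so the comparisons are not independent. Of 9996 genes with a mean of at least 5 CPM, *Maf* ranked 325, *Irf4* 397, *Bcl6* 592 and *Prdm1* 4045 by the rise from WT to DKO-severe. *Ascl2* was below that mean and not among them, and its fold would place it at 514. In DKO-moderate against WT the ranks were 243 for *Maf*, 267 for *Ascl2*, 366 for *Irf4*, 605 for *Bcl6* and 7634 for *Prdm1*.

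The balance between a Tfh factor and *Prdm1* was then read within each library, as the ratio of reads per kilobase of exon, which needs no scaling between libraries. In WT 1 to 4 there was 1.56, 1.54, 1.55 and 1.77 times as much *Bcl6* as *Prdm1* per kilobase. The ratio of *Bcl6* to *Prdm1* was 2.40, 6.68, 2.61 and 8.08 in DKO-moderate 1 to 4 and 16.1, 2.50, 11.4 and 10.3 in DKO-severe 1 to 4. The WT libraries were close to each other, and all DKO libraries exceeded them. DKO-severe 2 fell within the lower DKO-moderate pair, and the other 3 DKO-severe libraries exceeded all DKO-moderate libraries. On the log2 scale the ratio averaged 0.68 ± 0.10 for WT, 2.10 ± 0.90 for DKO-moderate and 3.05 ± 1.19 for DKO-severe (SD, n = 4 each).

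The ratio of *Maf* to *Prdm1* per kilobase was 2.03, 2.63, 2.50 and 3.47 in WT 1 to 4, and that of *Irf4* to *Prdm1* was 2.33, 2.75, 3.08 and 2.88. In DKO-moderate 1 to 4 the *Maf* ratio was 10.2, 27.3, 9.60 and 25.9, and the *Irf4* ratio was 8.57, 14.6, 7.19 and 20.9. In DKO-severe 1 to 4 the *Maf* ratio was 55.2, 11.2, 46.4 and 29.5, and the *Irf4* ratio was 42.7, 8.39, 32.9 and 33.5. For both genes every DKO library lay above every WT library, and DKO-severe 2 lay within the DKO-moderate range. *Ascl2* was below *Prdm1* per kilobase in all WT libraries (ratios of 0.0125, 0.109, 0.119 and 0.587). The *Ascl2* ratio was 0.520, 1.97, 1.64 and 0.834 in DKO-moderate 1 to 4 and 1.52, 1.03, 1.60 and 1.89 in DKO-severe 1 to 4, so that *Ascl2* was at or above *Prdm1* in all DKO-severe libraries.

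The 4 ratios were compared between groups by two-sided exact permutation tests over libraries, for which 4 against 4 cannot give less than 0.0286. All 4 ratios in DKO-severe exceeded those in WT at this smallest value (exact p = 0.0286, 0.049 after Benjamini-Hochberg adjustment over the 12 tests). The 4 ratios share their *Prdm1* reads and their libraries, so the 12 tests are not independent of each other. The log2 differences were 2.37 (SE 0.60) for *Bcl6*, 3.54 (SE 0.54) for *Maf*, 3.19 (SE 0.54) for *Irf4* and 3.90 (SE 1.16) for *Ascl2*. As *Prdm1* itself differed by only 0.03 there, the first 3 nearly repeat the fold changes of their genes (2.27, 3.37 and 3.06). In DKO-moderate against WT the ratios of *Bcl6*, *Maf* and *Irf4* were higher by 1.42 (SE 0.45), 2.64 (SE 0.44) and 2.09 (SE 0.36), each with exact p = 0.0286 (0.049 adjusted). The *Ascl2* ratio was 3.46 higher there (SE 1.22, exact p = 0.0571, 0.0857 adjusted), with DKO-moderate 1 below WT 4. Between the DKO groups no ratio passed: the log2 differences were 0.95 (SE 0.75, exact permutation p = 0.2) for *Bcl6*, 0.90 (SE 0.66, exact permutation p = 0.171) for *Maf*, 1.10 (SE 0.64, exact permutation p = 0.171) for *Irf4* and 0.44 (SE 0.48, exact permutation p = 0.457) for *Ascl2*. Without DKO-severe 2 these differences were 1.53, 1.38, 1.62 and 0.61 in the same order, as values with no test.

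**Figure D3:**
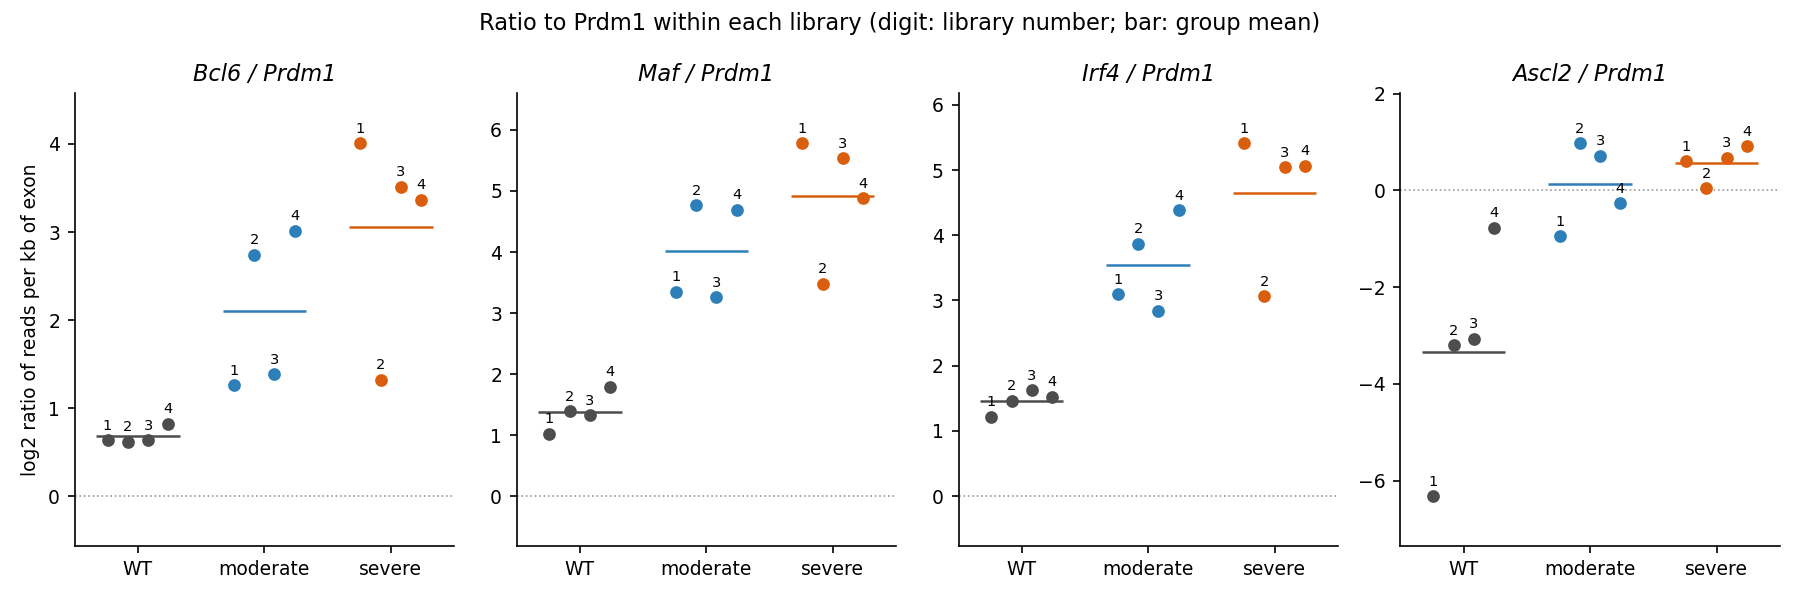
Log2 ratio of reads per kilobase of exon of Bcl6, Maf, Irf4 and Ascl2 to those of Prdm1 (vertical) in each library (horizontal, by group, with the library number above each point and a bar at the group mean). The dotted line marks equal levels. WT libraries lie lowest for Bcl6, Maf and Irf4, WT 4 lies above DKO-moderate 1 for Ascl2, and DKO-severe 2 lies lowest among DKO-severe libraries in all 4.

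Levels were then compared between the genes per kilobase of exon. In WT, *Irf4*, *Maf*, *Bcl6*, *Prdm1* and *Ascl2* had group means of 6.95 ± 1.65, 6.74 ± 2.29, 4.02 ± 0.78, 2.49 ± 0.34 and 0.556 ± 0.740 CPM per kilobase (SD, n = 4), so *Irf4* and *Maf* did not differ beyond their spread. In DKO-moderate the order was *Maf* at 36.1 ± 14.3, *Irf4* at 25.4 ± 7.72, *Bcl6* at 9.71 ± 4.13, *Ascl2* at 2.72 ± 1.74 and *Prdm1* at 2.13 ± 0.49 CPM per kilobase. The group spreads of *Maf* and *Irf4* overlapped there, but *Maf* was above *Irf4* in every DKO-moderate library. Those of *Ascl2* and *Prdm1* overlapped too, and their order differed between libraries. In DKO-severe it was *Maf* at 69.7 ± 14.4, *Irf4* at 57.8 ± 12.5, *Bcl6* at 19.4 ± 5.22, *Ascl2* at 3.48 ± 1.21 and *Prdm1* at 2.54 ± 1.56 CPM per kilobase. The group spreads of both neighbouring pairs overlapped again. Yet *Ascl2* was above *Prdm1* in every DKO-severe library, though only narrowly in DKO-severe 2 (ratio 1.03). Within single libraries, *Irf4* led in WT 1 to 3 and in DKO-severe 4, and *Maf* led in the other 8. *Prdm1* was the fourth of the 5 in all WT libraries and in DKO-moderate 1 and DKO-moderate 4, and it was the last in DKO-moderate 2, DKO-moderate 3 and all DKO-severe libraries.

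Libraries of the same group differed in which factor they favoured. In every one of the 8 DKO libraries, *Prdm1* and *Bcl6* deviated from their group means of log2 CPM to opposite sides, and so did *Prdm1* and *Irf4*. Some of these deviations were close to 0, such as 0.0029 for *Irf4* in DKO-severe 3 and 0.023 for *Prdm1* in DKO-moderate 1 (446 reads, exact 95% Poisson interval 406 to 489), so their sides are not fixed by the reads. In DKO-moderate 4, *Bcl6* was 0.59 above its group mean and *Prdm1* 0.32 below, and in DKO-moderate 3 the deviations were -0.29 and 0.42. In DKO-severe 2, *Bcl6* deviated by -0.63, *Irf4* by -0.48, *Maf* by -0.34 and *Prdm1* by 1.10. *Maf* and *Prdm1* lay on opposite sides in 4 of 4 DKO-moderate and 3 of 4 DKO-severe libraries, and *Ascl2* and *Prdm1* in 2 of 4 and 1 of 4. In WT, by contrast, all 4 factors deviated to the same side as *Prdm1* in each of the 4 libraries: WT 1 and WT 2 were below the group mean for all 5 genes, and WT 3 and WT 4 were above it. Deviations from a mean of 4 libraries are not independent of each other, the DKO-severe mean is moved by DKO-severe 2 itself, and no test was made of these counts.

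**Figure D4:**
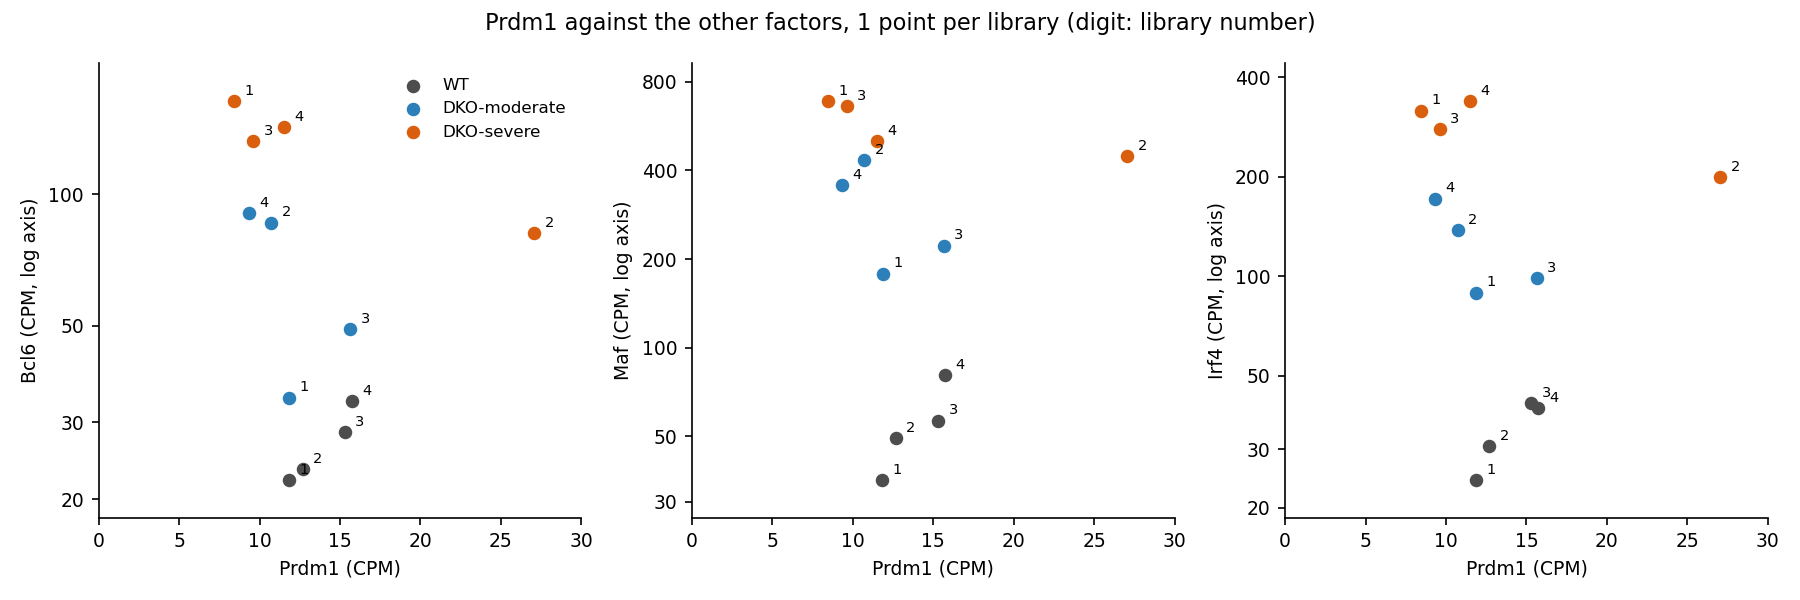
CPM of Bcl6, Maf and Irf4 (vertical, log axis) against CPM of Prdm1 (horizontal) with 1 numbered point per library, coloured by group. WT points lie from low to high in both directions, while within each DKO group the library lowest in Prdm1 (DKO-moderate 4 at 9.33 CPM and DKO-severe 1 at 8.44 CPM) has the highest Bcl6 of its group.

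DKO-severe 2, which carried the highest *Prdm1*, also had the highest sums of B cell genes (416.7 CPM, against 70.5 to 154.5 CPM in the other DKO-severe libraries), of germinal centre B cell genes (110.7 against 72.2 to 81.6 CPM), of monocyte and macrophage genes (380.5 against 72.6 to 371.6 CPM) and of CD8 T cell genes (13.2 against 1.03 to 6.59 CPM) in its group. Their part in its *Prdm1* level was not tested. Its sum of 10 plasma cell genes was 469.9 CPM, against 373.9 to 550.3 CPM in the other DKO-severe libraries. On average *Xbp1*, *Jchain*, *Txndc5* and *Ell2* gave 136.4, 104.8, 103.0 and 75.5 CPM of this sum in DKO-severe. Activated T cells also express *Xbp1* and *Ell2*, so the sum does not order libraries by plasma cells alone. The part of plasma cells in the *Prdm1* level was not tested. Germinal centre B cells express *Bcl6* and plasma cells express *Prdm1* and *Irf4*, so these sums were set beside the members in every group. The germinal centre B cell genes summed to 63.3 to 72.2 CPM in WT, 72.0 to 88.8 CPM in DKO-moderate and 72.2 to 110.7 CPM in DKO-severe. In DKO-severe against WT, 1 of the 8 rose (*S1pr2*, which T cells also express) and 1 fell (*Fas*). In DKO-moderate against WT, *S1pr2* rose from 16.1 to 33.9 CPM (1.07, edgeR adjusted p = 0.00134) and the other 7 did not pass. *Rgs13* and *Gcsam* were near the floor, at 0 to 1.01 and 0 to 0.805 CPM in WT. Both were listed at 0 in all DKO-moderate libraries and spanned 0 to 2.07 and 0 to 4.38 CPM in DKO-severe. The part of germinal centre B cells in the *Bcl6* level was not tested.

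The plasma cell genes summed to 130.0 to 231.9 CPM in WT, 172.8 to 241.0 CPM in DKO-moderate and 373.9 to 550.3 CPM in DKO-severe, and 7 of 10 rose in DKO-severe against WT. The 7 were *Ell2* and *Xbp1*, which activated T cells also express, and *Sdc1*, *Derl3*, *Eaf2*, *Fkbp11* and *Txndc5*. *Txndc5* and *Xbp1* already averaged 75.1 and 53.3 CPM in WT, a large part of the sum there. The genes that did not pass were *Jchain* (2.35, edgeR adjusted p = 0.16), *Mzb1* (2.90, edgeR adjusted p = 0.112) and *Tnfrsf17* (1.89, edgeR adjusted p = 0.125). The defining gene *Sdc1* rose from 0.614 CPM in WT to 3.93 CPM in DKO-severe (2.67, SE 0.74, edgeR adjusted p = 0.00968) and averaged 0.974 CPM in DKO-moderate. *Derl3*, a gene of protein disposal in the endoplasmic reticulum, rose from 0.356 to 4.41 CPM (3.61, edgeR adjusted p = 0.000361). In an edgeR fit with a term for the mean log2 CPM of the plasma cell genes, *Maf* stayed higher in DKO-severe than in WT (2.58, SE 0.58, edgeR adjusted p = 0.023), and so did *Irf4* (2.28, SE 0.40, edgeR adjusted p = 0.0108). *Bcl6* (1.37, SE 0.55, edgeR adjusted p = 0.147) and *Ascl2* (2.81, SE 1.93, edgeR adjusted p = 0.403) then no longer passed. In DKO-moderate against WT, *Bcl6* was 0.98 higher in that fit (SE 0.31, edgeR adjusted p = 0.0654), while *Maf* (2.18) and *Irf4* (1.66) still passed. The list tracks the groups, so the term also takes up a part of any difference between them.

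B cell genes summed to 6.81 to 249.4 CPM in WT, 21.6 to 47.5 CPM in DKO-moderate and 70.5 to 416.7 CPM in DKO-severe, and 1 of 10 (*Blk*) rose in DKO-severe against WT. Neutrophil genes summed to 0 to 1.90 CPM in WT, 0.159 to 8.48 CPM in DKO-moderate and 9.60 to 2052 CPM in DKO-severe, and all 10 rose in DKO-severe. Monocyte and macrophage genes summed to 4.71 to 193.5, 14.2 to 61.0 and 72.6 to 380.5 CPM, with 2 of 10 (*Cd68* and *Fcgr1*) higher in DKO-severe. CD8 T cell genes summed to 16.8 to 26.7, 3.13 to 8.52 and 1.03 to 13.2 CPM, and *Cd8b1* fell. The 10 general T cell genes spanned 5478 to 6204, 6261 to 6573 and 5021 to 5552 CPM in sum, with 3 higher and 4 lower in DKO-severe. With terms for the neutrophil and the B cell genes, the call of DKO-severe above WT held for *Bcl6* (1.90, edgeR adjusted p = 0.0266), *Maf* (2.92, edgeR adjusted p = 0.00385) and *Irf4* (2.99, edgeR adjusted p = 0.0017) and was lost for *Ascl2*, whose difference was as large (2.80, SE 1.47, edgeR adjusted p = 0.21). The neutrophil genes also track the groups, so these terms too take up a part of any difference between them. Without DKO-severe 1 and DKO-severe 2 together, *Bcl6* was 2.39 (edgeR adjusted p = 0.00029), *Maf* 3.43 (edgeR adjusted p = 7.15e-05), *Irf4* 3.22 (edgeR adjusted p = 2.74e-05) and *Prdm1* -0.36 (edgeR adjusted p = 0.219) against WT.

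**Figure D5:**
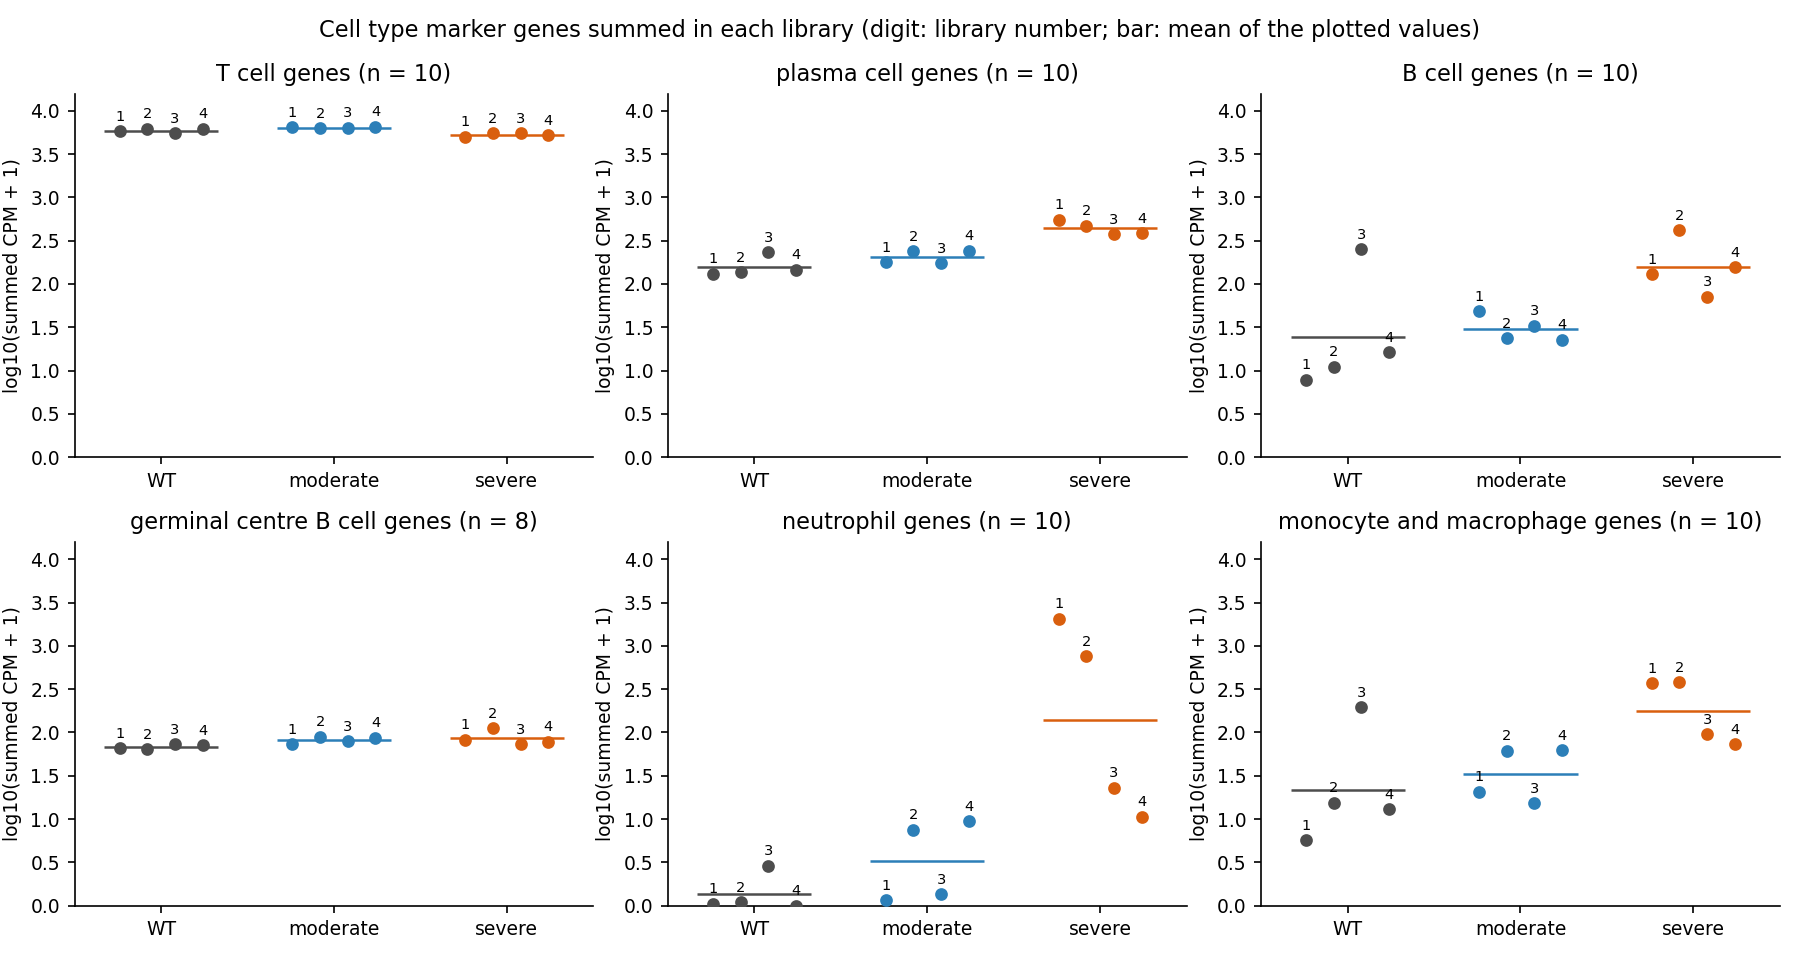
Summed CPM of the marker genes of 6 cell types in each library, as log10 of the sum plus 1 (vertical), by group (horizontal), with the library number above each point and a bar at the mean of the plotted values. T cell genes sum to 5021 to 6573 CPM over the 12 libraries, with DKO-moderate above the other groups, plasma cell genes are highest in DKO-severe, and neutrophil genes are highest in DKO-severe 1 and DKO-severe 2.

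Other genes of the same pathway are given by lists, each as a count over its tested genes. Genes called lower made up 25.9% of all genes tested in DKO-severe against WT, 4.74% in DKO-moderate against WT and 10.7% in DKO-severe against DKO-moderate. Of 15 other Tfh-promoting factors, 7 rose and 3 fell in DKO-severe against WT (median log2 fold change 0.35, against -0.01 over all genes tested). In DKO-moderate 6 rose and 1 fell. *Tox2*, which supports BCL6 in Tfh cells, went from 6.17 ± 4.13 CPM in WT to 39.6 ± 25.8 CPM in DKO-moderate and 86.0 ± 18.3 CPM in DKO-severe (log2 fold change in DKO-severe 3.80, SE 0.52, edgeR adjusted p = 9.71e-05). *Pou2af1*, a coactivator best known from B cells, went from 23.3 ± 10.2 to 75.4 ± 33.5 and 208.8 ± 19.0 CPM. The genes of TCF1 and LEF1, factors that promote *Bcl6* in the early Tfh cell, went the other way: *Lef1* fell from 321.6 ± 25.5 to 166.4 ± 60.6 and 61.4 ± 14.5 CPM (-2.39, SE 0.25), and *Tcf7* was at 1362 ± 211, 1133 ± 147 and 680 ± 25.5 CPM (-1.0 in DKO-severe, SE 0.12).

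Of 12 Tfh-opposing factors other than *Prdm1*, 5 rose and 3 fell in DKO-severe against WT (median 0.30), and 3 rose and 3 fell in DKO-moderate. *Bhlhe40*, a repressor that limits Tfh cells, rose from 37.5 ± 12.5 CPM in WT to 164.0 ± 72.5 CPM in DKO-moderate and 528.3 ± 234 CPM in DKO-severe (3.82, SE 0.45, edgeR adjusted p = 3.92e-05). *Zeb2*, a repressor active in cytotoxic effector T cells, was at 3.55 ± 3.31, 6.06 ± 2.99 and 15.8 ± 2.75 CPM, and its change against WT passed in DKO-severe (2.15, SE 0.57) but not in DKO-moderate (0.77, edgeR adjusted p = 0.365). *Foxo1* and *Foxp1*, which hold back *Bcl6* and Tfh differentiation, fell in both DKO groups, by 1.54 and 1.40 on the log2 scale in DKO-severe. *Tbx21*, *Klf2*, *Runx3* and *Rora* did not pass in DKO-severe.

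Of 15 genes that BCL6 is known to repress in T cells, 5 rose and 5 fell in DKO-severe against WT (median -0.05). *Ccr7* and *Gpr183*, receptors that keep T cells out of follicles, fell from 502.2 ± 41.2 to 130.8 ± 10.9 CPM and from 88.7 ± 5.26 to 23.1 ± 9.28 CPM. *Il2ra*, the high-affinity IL-2 receptor chain, and *Ccr6* rose, from 11.8 ± 3.77 to 97.0 ± 18.6 CPM and from 5.22 ± 1.67 to 21.7 ± 12.1 CPM. *Il2ra* is at once a gene that BCL6 represses and a gene of the IL-2 pathway that raises *Prdm1*. Of 12 genes of BCL6 corepressors and partners, 2 rose and 3 fell in DKO-severe. *Hdac7* rose from 166.0 ± 11.8 to 331.7 ± 33.4 CPM, and *Ctbp2* was at 0.158 ± 0.190 CPM in WT and 6.56 ± 3.98 CPM in DKO-severe. *Mta3* fell by 0.56 (SE 0.09) and *Ncor1* by 0.44 (SE 0.14) on the log2 scale.

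Of 11 genes that BLIMP-1 represses, 1 rose and 5 fell in DKO-severe against WT. *Cxcr5*, the receptor that leads Tfh cells into follicles, rose from 32.4 ± 18.4 CPM in WT to 119.9 ± 44.8 CPM in DKO-moderate and 199.8 ± 22.3 CPM in DKO-severe (2.62, SE 0.38, edgeR adjusted p = 0.000159). *Ccr7* and *Tcf7* are also in this list and fell as given above. Of 10 tested genes that BLIMP-1 or c-MAF raises in T cells, 8 rose in DKO-severe against WT and 5 rose in DKO-moderate (medians 3.31 and 2.04). *Lag3*, a coinhibitory receptor, rose from 16.0 ± 12.7 to 298.3 ± 127 and 796.7 ± 200.2 CPM, and *Gzmb*, a granule protease, from 2.20 ± 1.05 to 18.9 ± 13.1 and 72.0 ± 49.5 CPM. *Prdm1* itself passed the test in neither comparison.

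Of 7 targets of c-MAF in Tfh cells, 6 rose and 1 fell in DKO-severe against WT, and 4 rose and 1 fell in DKO-moderate. *Il21*, the Tfh cytokine that acts on B cells, rose from 8.31 ± 5.71 CPM in WT to 144.6 ± 75.6 and 278.8 ± 42.1 CPM (5.06, SE 0.52, edgeR adjusted p = 1.63e-05). *Icos*, a costimulatory receptor, rose from 128.5 ± 20.3 to 520.7 ± 188 and 994.0 ± 237 CPM. *Il4ra* fell from 367.9 ± 23.3 to 192.8 ± 66.0 and 91.4 ± 15.3 CPM. Of 6 genes that ASCL2 raises or lowers, 2 rose (*Cxcr5* and *Il2ra*) and 3 fell (*Ccr7*, *Selplg* and *Il7r*) in DKO-severe, and *Cxcr4* did not pass (0.86, edgeR adjusted p = 0.188). ASCL2 is known to raise *Cxcr5* and *Cxcr4* and to lower the other 4, so *Il2ra* moved against that direction.

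Of 10 genes of IRF4 partners, 2 rose and 4 fell in DKO-severe against WT. *Batf* rose from 35.2 ± 5.16 to 79.6 ± 24.2 and 116.6 ± 21.0 CPM, and *Batf3* (0.129 CPM in WT and 1.02 CPM in DKO-severe) was the other rise. The JUN genes fell: *Jun* from 410.7 ± 63.0 to 47.2 ± 26.1 CPM in DKO-severe (-3.12, SE 0.42) and *Junb* from 2024 ± 561 to 533.2 ± 143 CPM (-1.92, SE 0.29). Of 22 tested relatives from the families of the 5 members, 6 rose and 9 fell in DKO-severe. *Irf5* rose from 6.67 ± 5.28 to 34.5 ± 4.70 CPM and *Mafg* from 9.01 ± 0.76 to 21.1 ± 2.09 CPM, while *Prdm9* fell from 8.04 ± 0.78 to 3.12 ± 0.99 CPM. Among relatives of *Maf*, *Mafk* fell by 0.86 and *Maff* by 1.16 on the log2 scale.

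The genes whose profiles over the 12 libraries were closest to each member were named by the smallest root mean square difference of centred log2 CPM, among 9995 genes for *Bcl6*, *Prdm1*, *Maf* and *Irf4* and 9996 for *Ascl2*. For *Bcl6* they were *Apol10b* (0.16), *Tpi1* (0.19), an enzyme of glycolysis, and *Timp2* (0.22), an inhibitor of metalloproteinases. For *Maf* they were *Ncrna00086* (0.16), *Slc35e4* (0.18) and *Tiam1* (0.21). For *Irf4* they were *Csda* (0.10), *Icos* (0.20) and *Hif1a* (0.21), the oxygen-sensing factor, and *Icos* is the costimulatory receptor described among the c-MAF targets. For *Prdm1* they were *Ctsl* (0.24), *Tm6sf1* (0.28) and *Gm9769* (0.28), each with group means between 8.59 and 16.9 CPM. The nearest genes to *Ascl2* lay farther off: *Itgb8* (0.74), *Clip3* (0.82) and *Arnt2* (0.82). The 12 libraries share 3 group means, and genes that differ between the groups have those means in common.

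The nearest tested gene on each side of a member was read from the same fit. Beside *Bcl6*, *Rtp4* lay 350.8 kb away and fell by 1.42 in DKO-severe against WT on the log2 scale, and *Lpp* lay 404.5 kb away and was 0.60 higher (edgeR adjusted p = 0.0417). Beside *Maf*, *Wwox* was 0.47 higher and *Cdyl2* 0.41 lower. Beside *Irf4*, *Exoc2* (22.5 kb away) was 0.30 higher and *Dusp22* (38.0 kb away) 1.46 higher (edgeR adjusted p = 0.000187). Beside *Ascl2*, *Tspan32* (35.6 kb away) was at 237.0 ± 28.8 CPM in WT and 209.8 ± 11.1 CPM in DKO-severe, and *Igf2* stayed below 1 CPM on average. Beside *Prdm1*, *Atg5* was 0.44 lower and *Prep* 0.73 higher in DKO-severe (edgeR adjusted p = 0.000661 and 0.000734).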

How the data were processed

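RNA sequencing libraries (NEBNext Ultra II Directional, paired-end 150 bases on a NovaSeq instrument) were made by the authors from 12 mice. Per the labels and the study's methods, the authors aligned reads to mm10 with STAR 2.7.11, discarded reads with more than one position, and made gene counts in reverse-stranded mode with htseq-count. The deposited values are raw counts per gene without normalization, and the annotation behind them is not given in the sources used here. Reads on genes were 29254260 to 42133536 per library, and 18.5% to 23.7% of records were not assigned to a gene and left out (10.4% to 15.1% lay on no feature, the rest were in other classes). Poisson intervals cover counting error only.

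Genes with at least 10 reads over the libraries of a condition (16035 of 26608) were scaled by TMM and tested with edgeR 4.0.16 (quasi-likelihood F test, R 4.3.3) in a joint fit of the 12 libraries, and p-values were adjusted by Benjamini-Hochberg (threshold 0.05). A standard error is the log2 fold change divided by the square root of F. Ratios to *Prdm1* used reads plus 0.5 per kilobase of exon (GENCODE M21) and exact permutation tests in scipy 1.17.1. The alternatives were DESeq2 1.42.0, other scalings and filters, the groups compared alone, a replicate block, terms for cell type genes and leaving out each library. Leaving out DKO-severe 1 and DKO-severe 2 together was added after seeing the data. The main edgeR fit was tested on simulated data, in which only DKO-severe was changed and far fewer genes differed than were called here.

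The 5 members, the gene lists and the tests were chosen with earlier results of these data known. Named genes are the members, up to 2 rises and 2 falls per list among genes past the threshold in DKO-severe against WT with at least 5 CPM in the higher group, the 3 nearest profiles and the nearest tested genes on each side of a member, and genes of the cell type lists. List genes named outside this rule (*S1pr2*, *Fas*, *Blk*, *Batf3*, *Mafk*, *Maff*, *Tbx21*, *Klf2*, *Runx3*, *Rora*, *Cxcr4* and *Selplg*) were chosen after their values were seen. Of 168 symbols, 167 matched, 5 of them by an older symbol. Libraries of a group were no copies of each other (chi-square per degree of freedom at least 22.9). The edgeR p-values set a difference between groups against the spread between these mice, estimated with information shared between genes. The exact p-values set it against all ways of splitting the same libraries. A few list genes are not reported here by name, although they remain in the counts.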

Additional observations from a re-analysis of the deposited data

Results flagged for a closer look

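Among 27 sets of 4 libraries checked (CPM of the 5 genes and the 4 log2 ratios to *Prdm1*, in each group), 3 held a library whose gap to its nearest neighbour was above Dixon's critical value as a share of the range of its group. Chance alone gives such a gap in about 1 of 20 sets. *Prdm1* in DKO-severe 2 stood at 27.1 CPM (gap 0.835 of the range). The log2 ratio of *Irf4* to *Prdm1* in DKO-severe 2 was 3.07 (gap 0.841), and it shares the *Prdm1* reads of the first. The log2 ratio of *Bcl6* to *Prdm1* in WT 4 was 0.83 (gap 0.909), in a group whose other 3 libraries spanned 0.62 to 0.64. No cause of these values was tested.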

How the results depend on the processing

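Over all results and alternatives, 470 values kept their direction and their side of the threshold or stayed within 1.5 times the count, 30 were weaker, 2 stronger, 9 reversed and 13 moved. The reversed values were all of *Prdm1*. In DKO-severe against WT (0.03) its log2 fold change was -0.076 with the replicate number as a block, -0.048 with the plasma cell term, -0.11 with the neutrophil and B cell terms and -0.36 without DKO-severe 1 and DKO-severe 2, and it ranged from -0.47 to 0.21 when 1 library was left out (-0.04 without WT 1, -0.02 without WT 2, -0.47 without DKO-severe 2). In DKO-severe against DKO-moderate (0.25) it was -0.13 without DKO-severe 1 and DKO-severe 2 and ranged from -0.23 to 0.45 over single libraries left out. It passed the threshold in none of these fits.

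Residual correlations gave no sign that replicate numbers pair the mice. Their median was -0.05 (-0.29 to 0.28) in 12 pairs of the same number and -0.01 (-0.39 to 0.49) in 36 pairs of different numbers. These wide ranges do not exclude a pairing, and the labels do not say whether the numbers pair mice. With the replicate block, *Bcl6* (1.05, edgeR adjusted p = 0.051) and *Maf* (1.03, edgeR adjusted p = 0.0543) missed the threshold in DKO-severe against DKO-moderate, and the counts of called genes were 7794, 2201 and 2321 for DKO-severe against WT, DKO-moderate against WT and DKO-severe against DKO-moderate.

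Terms for cell type genes moved most. With the plasma cell term, called genes numbered 1335 (of 8428) in DKO-severe against WT, 1694 (of 2734) in DKO-moderate against WT and 0 (of 3217) in DKO-severe against DKO-moderate, where edgeR gave 2021 genes with an unadjusted p under 0.05. DESeq2 called 4169 genes there without the term and was not run with it. In that fit *Bcl6* was 1.37, 0.98 and 0.38 in the 3 comparisons, none past the threshold, *Ascl2* was 2.81 in DKO-severe against WT, and *Maf* (0.40) and *Irf4* (0.62) missed it in DKO-severe against DKO-moderate. With the neutrophil and B cell terms the counts were 2892 and, for DKO-severe against DKO-moderate, 183. *Ascl2* was then 2.80 against WT, *Bcl6* 1.14 in DKO-moderate against WT (edgeR adjusted p = 0.0514), and *Bcl6*, *Maf* and *Irf4* were 0.75, 0.63 and 1.12 in DKO-severe against DKO-moderate, below the threshold. Fitting only the 2 DKO groups gave 1.01 for *Bcl6* and 0.96 for *Maf*, both past it no longer. DESeq2 called *Ascl2* in DKO-moderate against WT (2.30). Without DKO-severe 1 and DKO-severe 2, *Ascl2* (2.61 against WT) and *Maf* (1.0 against DKO-moderate) missed the threshold, and 2114 genes were called between the DKO groups.

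Over single libraries left out, the log2 fold changes of *Ascl2* against WT ranged from 2.23 to 4.17 (DKO-severe) and from 1.88 to 3.81 (DKO-moderate), and those of *Bcl6* and *Maf* in DKO-severe against DKO-moderate from 0.79 to 1.23 and from 0.77 to 1.19. Called genes ranged from 1616 to 2920 in DKO-moderate against WT, with 1616 without WT 1 and 1707 without WT 2. In DKO-severe against DKO-moderate they ranged from 1646 to 3670, with 1646 without DKO-moderate 1, 1815 without DKO-moderate 3, 1971 without DKO-severe 1, 1997 without DKO-severe 3 and 1989 without DKO-severe 4. All 12 ratio differences kept their direction when 1 library was left out and under pseudocounts of 1 and 0.1 read. Scaling by library size alone shifted all genes together (median log2 difference of DKO-severe from WT 0.18), and the share of calls that were higher went from 50.7% to 66.5%. In DKO-severe against DKO-moderate that share went from 46.9% to 64.9%, and to 59.6% with DESeq2's size factors. The causes were not tested. *Ascl2* is limited by depth in WT, where 3 libraries had 18 reads or fewer.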

Other observations

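In WT, the 5 genes ranked the libraries nearly alike. WT 1 was the lowest of the 4 for every gene, and WT 4 was the highest for *Bcl6*, *Prdm1*, *Maf* and *Ascl2*, whereas *Irf4* was highest in WT 3 (41.5 CPM, against 39.9 CPM in WT 4). WT 3 had the most B cell genes of the WT libraries (249.4 CPM, against 6.81 to 15.2 CPM in the other 3). It was next below WT 4 in *Bcl6* (28.5 against 33.5 CPM) and in *Prdm1* (15.3 against 15.7 CPM). Its sums of plasma cell genes (231.9 CPM) and of monocyte and macrophage genes (193.5 CPM) were also the highest in WT. The part of such cells in these levels was not tested. In DKO-severe, *Ascl2* was highest in DKO-severe 2 (8.10 CPM), the library lowest in *Bcl6*, *Maf* and *Irf4*.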
